A study of Mus musculus with 4 samples.

Results

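Ovarian stromal fibroblasts were picked out of single-cell RNA-sequencing libraries of mouse ovaries, and were chosen by the measured UMI counts of 21 genes. A barcode, which stands for the content of 1 droplet, counted as a stromal fibroblast if it passed the filters on quality (at least 500 genes, over 1000 UMIs and under 10% mitochondrial UMIs), held at least 4 of the 8 genes Dpp6, Nkain3, Enpp2, Lum, Kcnk2, Frem1, Nlgn1 and Dcn, and stayed within limits on granulosa genes (Inhba and Amh together under 10 of 10000 UMIs), theca genes (fewer than 3 of Asb4, Enpep, Lamc3, Hhip, Tmem100, Abcb1b and Hao2) and genes of dividing cells (fewer than 2 of Top2a, Mki67, Ube2c and Prc1). A UMI is a tag that marks 1 captured transcript molecule. By this rule 4586 of 47782 filtered barcodes, or 9.60%, were stromal fibroblasts. The levels of these 21 genes are therefore only described here. The genes stayed in the fit across genes and in its adjustment, but no test result is given for them.

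Fibroblasts of the ovarian stroma lie between the follicles and around the theca layer, where they lay down collagens, proteoglycans and other matrix that holds the follicles in place. Theca and interstitial cells, which make androgens, are thought to arise from stromal progenitors, so that the limit between these classes is gradual. Granulosa cells, which line the follicle and convert androgens into estrogens, are the cells in which the deletion of the study was meant to act.

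The libraries came from ovaries of 8-week-old female littermates, 2 from Fosl2F/F mice, which carry LoxP sites at the coding part of Fosl2 (flanking exons 2 and 4) and served as controls, and 2 from Cyp19a1-Cre; Fosl2flox/flox mice (Fosl2cKO), in which Cre is driven by the promoter of the aromatase gene Cyp19a1. Fosl2 encodes a subunit of the transcription factor AP-1. The labels do not say whether a library held 1 mouse or a pool, so the p-values measure the spread between these libraries only. Granulosa barcodes had Inhba and Amh at or over the limit above, fewer than 4 of the 8 marker genes and fewer than 2 of the genes of dividing cells. In them, Fosl2 stood at 206 and 199.8 CPM for Fosl2F/F against 262 and 131 CPM for the label Fosl2cKO. The 1st of the latter lay above both controls. Where the counted 3' reads fall against the deleted part was not examined. The paper reports by immunoblot that Fosl2 protein was depleted in granulosa cells of Fosl2cKO mice. As these RNA counts do not settle the deletion in each library, both are called libraries labelled Fosl2cKO. CPM denotes UMIs per 1000000 UMIs of the class in that library. Values joined by "against" are given throughout in the order Fosl2F/F replicates 1 and 2, then replicates 1 and 2 labelled Fosl2cKO.

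The deposited libraries held 120327227 to 148836173 UMIs in 8654 to 28155 barcodes. The 2nd Fosl2F/F library stood apart, with 24320 filtered barcodes against 7175 to 8780 in the other libraries and a median of 2940 UMIs per fibroblast against 5948.5 to 8106. Doublets (droplets with more than 1 cell) were marked by Scrublet score at a share set by the number of barcodes, so that 19.5% of its filtered barcodes were marked by construction, against 5.74% to 7.03% elsewhere. Among its fibroblasts the share was 22.3%, against 3.72% to 5% in the other libraries. The threshold that Scrublet itself chose marked 3324 of its 24320 barcodes and 193 to 313 in each other library. Across the libraries, 31 fibroblasts carried a barcode sequence that also occurred in another library.

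The fibroblasts formed a larger share of the filtered barcodes in the libraries labelled Fosl2cKO. They were 564 of 8780 barcodes (6.42%) and 2039 of 24320 (8.38%) in the Fosl2F/F libraries, while the other group had 960 of 7175 (13.4%) and 1023 of 7507 (13.6%). The means were 7.40% ± 1.39 (SD, n = 2) and 13.5% ± 0.175 (SD, n = 2), a ratio of 1.82 without overlap of the groups. A two-sided exact permutation test gave p = 0.333, the smallest value that it allows for 2 libraries against 2. No difference in share could therefore pass a threshold of 0.05 in this test.

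The difference in share was also seen at equal depth. When each barcode was thinned to 2000 UMIs before the rule was applied, which leaves out 5770 shallower barcodes (587 and 4560 against 310 and 313), the shares were 3.12% and 4.34% against 7.52% and 7.84%. With at least 5 of the 8 marker genes required, the shares were 3.76% and 4.22% against 9.64% and 9.24%. Theca-interstitial barcodes had at least 3 of the 7 theca genes and lay under the granulosa limit and the limit on dividing cells. Relative to them, the libraries lay closer together: fibroblasts were 43.8% and 46.7% of both classes together against 53.5% and 47.2%. The ratio of the group means was then 1.11. The theca-interstitial class has no limit on the 8 marker genes. Of the barcodes with at least 4 markers, 199 and 510 against 422 and 508 were lost to the theca limit. The theca-interstitial class held 725 and 2324 against 835 and 1146 barcodes, and this comparison was not read at equal depth. The shares are parts of a whole, and more fibroblasts and fewer captured cells of another type cannot be told apart; granulosa barcodes were 24.0% and 7.38% against 4.77% and 5.41% of the filtered barcodes, with the 2nd Fosl2F/F library closer to those labelled Fosl2cKO than to the 1st.

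**Figure D1:**
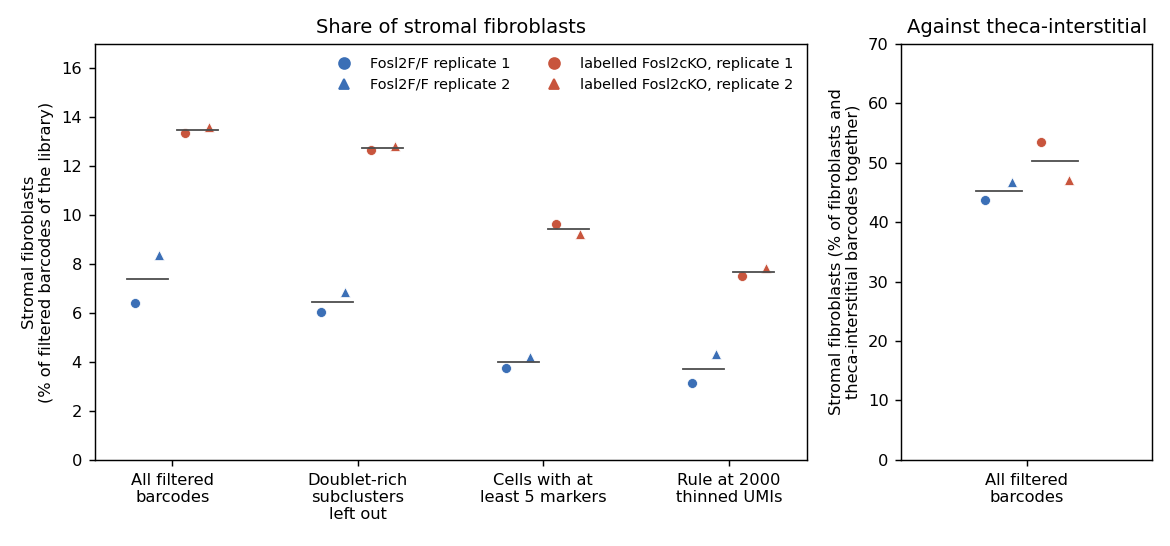
Share of stromal fibroblasts in each library, as a percentage of the filtered barcodes under 4 forms of the rule (left) and of fibroblasts and theca-interstitial barcodes together (right). Points are libraries and lines are group means (n = 2 per group). Both libraries labelled Fosl2cKO lie above both Fosl2F/F libraries in each form, and the gap is narrow on the right, where the lower of them (47.2%) sits next to the higher Fosl2F/F library (46.7%).

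The genes that chose the fibroblasts marked them in each library. Dcn, which encodes decorin, a small proteoglycan that binds collagen fibrils, stood at 1488 and 1414 CPM for Fosl2F/F against 2069 and 1449 CPM for the label Fosl2cKO, 8.45 times its mean level in all other barcodes. Lum, which encodes lumican of the same family, had 603 and 582 against 814 and 579.6 CPM. Dpp6, a partner of potassium channels, had 279 and 547 against 748 and 531 CPM, with the 1st Fosl2F/F library lowest. Nkain3 ranged from 201 to 258 CPM and Enpp2, which encodes autotaxin, an enzyme that makes lysophosphatidic acid, from 120.0 to 217 CPM. The potassium channel gene Kcnk2 had 167 and 169 against 173 and 321 CPM and was highest in the 2nd library labelled Fosl2cKO, while Frem1, of the basement membrane, had 283 and 314 against 196 and 357 CPM and Nlgn1, of cell adhesion, 203 and 221 against 245 and 207 CPM. In granulosa barcodes the highest value of any of these 8 genes was 46.0 CPM, for Dcn. That class was itself defined with an upper limit on the same 8 genes, so low levels there are partly set by the definition.

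At the threshold of the rule, cells changed by degrees. In the 1st Fosl2F/F library, barcodes with 3 of the markers, just outside, had 784 CPM of Col1a1 and 186 CPM of Pdgfra, whereas those with 4, just inside, had 1344 and 245 CPM. In the 2nd, Col1a1 stood at 603 CPM outside and 813 CPM inside. The same steps in the libraries labelled Fosl2cKO ran from 675 to 1814 CPM and from 387 to 831 CPM. Of the fibroblasts, 41.5% and 49.7% against 27.9% and 32.2% held exactly 4 markers. On the theca side, cells with 2 theca genes had 433 CPM of Cyp11a1 in the 1st Fosl2F/F library and 1733 CPM in the 2nd, and those with 3 had 1325 and 2940 CPM. In the libraries labelled Fosl2cKO, the same step ran from 1071 to 1500 CPM and from 280.0 to 371 CPM. Of the 6680 barcodes with at least 4 markers, 160 were lost to the granulosa limit, 1639 to the theca limit and 295 to the limit on dividing cells.

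Genes that the rule did not use also gave these barcodes the profile of fibroblasts, as a description. Col1a1, a chain of collagen I, had 1326 and 778 against 1618 and 909 CPM, 6.18 times the mean of other barcodes. Pdgfra, the receptor by which fibroblasts sense platelet-derived growth factor, had 303 and 307 against 343 and 421 CPM, and Tcf21, a transcription factor of gonadal stroma, 248 and 126 against 144 and 216 CPM. Both were lower in theca-interstitial barcodes, with 95.8 to 201 CPM and 31.4 to 116 CPM. Col1a2, also of collagen I, lay close in both classes, with means of 1230 CPM in fibroblasts and 1156 CPM in theca-interstitial barcodes. For Col3a1 these means were 1700 and 1070 CPM. Defining markers of other cells were low but not at 0: Ptprc of leukocytes ranged from 1.84 to 18.8 CPM and Pecam1 of endothelium from 9.19 to 33.4 CPM, with the highest value in the 2nd Fosl2F/F library for both. Cyp19a1, whose promoter drives the Cre, had 6.43 and 2.21 against 1.58 and 1.16 CPM in fibroblasts and 361 and 112 against 72.6 and 114 CPM in granulosa barcodes.

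The genes outside the rule with the largest ratio to all other barcodes, at 50 CPM or more, were led by Aox3, an aldehyde oxidase, with a mean of 59.0 CPM, 17.2 times the other barcodes. Fam180a (11.8 times), the opioid precursor gene Penk (11.5 times) and the Wnt receptor gene Fzd1 (10.7 times) followed. Receptors stood beside them: Gabra3 of a GABA receptor at 10.5 times, Lepr of leptin at 9.88 times and Npr3, which clears natriuretic peptides, at 8.46 times. Matrix and secreted products among the 20 included Mgp, the inhibitor of calcification, with a mean of 1995 CPM, Mfap5 of microfibrils, Col12a1 of fibril-associated collagen, Sparcl1, Islr, Olfml1, Pamr1 and the Wnt antagonist gene Sfrp1. Ms4a4d, Adam12, Lmcd1, Fam20a and Lhfp completed the 20. Mgp ranged from 1010 to 2806 CPM over the libraries, whereas Col12a1 ranged only from 109.8 to 129 CPM.

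**Figure D2:**
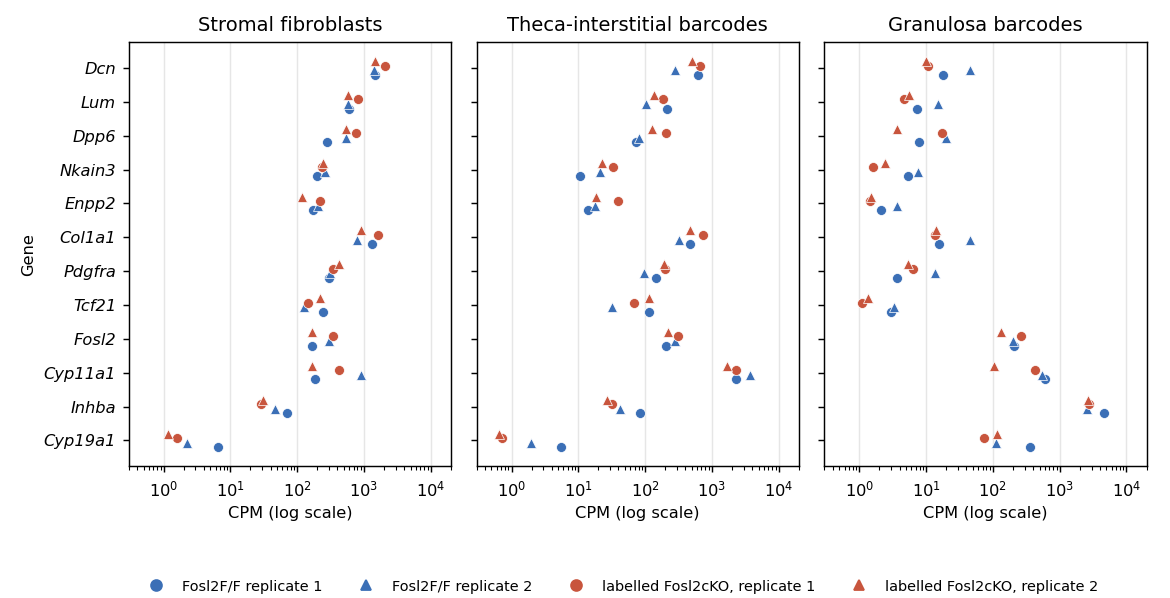
Levels of 12 genes in stromal fibroblasts, theca-interstitial barcodes and granulosa barcodes, in CPM on a log axis, with 1 point per library. Dcn, Lum, Dpp6, Nkain3 and Enpp2 belong to the rule. Col1a1, Pdgfra and Tcf21 do not and are also highest in the fibroblasts, while Fosl2 lies in a similar range in the 3 classes. Col1a2, which is not drawn, had means of 1230 CPM in fibroblasts and 1156 CPM in theca-interstitial barcodes.

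The fibroblasts were not uniform. Clustering of the 4586 cells by themselves gave 12 subclusters, whose leading genes are described and not tested, because they made the clusters. Their levels below are means over libraries with at least 20 cells of the subcluster. Subclusters 1 to 5 held 80.7% of the cells. Subcluster 1 (959 cells) was led by Car3, a carbonic anhydrase (100.4 against 25.6 CPM in the other fibroblasts), the growth factor gene Ptn (414 against 144 CPM), Adam12 and Npr3. Subcluster 2 (944 cells) was led by the potassium channel subunit gene Kcnmb2 (94.0 against 11.1 CPM), by Hsd11b2, which inactivates glucocorticoids (72.5 against 16.0 CPM), Slc26a7 and Hmga2. Subcluster 3 (881 cells) held Lrat, which stores retinol as esters (124 against 16.0 CPM), Mfap4, Aspn and the vessel growth factor gene Angpt1.

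Subcluster 4 (689 cells) was led by genes that respond to NF-kB, a transcription factor of inflammation: the chemokine gene Ccl2 (172 against 40.2 CPM), Tnfaip3 (190.4 against 52.6 CPM), Icam1 (724 against 247 CPM), Nfkb1 and Birc3. It also shared Car3 and Ptn with subcluster 1. It took 6.91% and 13.1% against 24.5% and 14.4% of the fibroblasts. The groups did not overlap, but the lower library labelled Fosl2cKO lay close to the higher Fosl2F/F library. Subcluster 5 (230 cells) was led by Spp1, which encodes osteopontin (349 against 17.7 CPM), through the 1st Fosl2F/F library alone, with 1347 and 14.0 against 15.1 and 19.6 CPM. It also carried Postn of periostin, Fn1 of fibronectin (536 against 92.3 CPM), the stretch-gated channel gene Piezo2 and Col15a1. Its share was 10.1% and 2.84% against 2.08% and 9.29% of the fibroblasts, which did not separate the groups.

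Subcluster 8 (181 cells) held the contractile genes Myh11 (1430 against 29.9 CPM), Cnn1, Actg2 and Acta2, and Rgs5 of pericytes, at 4.79% and 3.48% against 3.85% and 4.50% of the fibroblasts. Subcluster 9 (139 cells) held genes of adventitial fibroblasts, which surround vessels: Clec3b (633 against 3.57 CPM), Dpt of dermatopontin, Col14a1 and the complement gene C3 (1168 against 16.4 CPM). The T lymphocyte genes Ccl5 and Skap1 stood among its 10 leading genes, and 23.0% of its cells were marked as doublets. It took 0.709% and 2.35% against 6.56% and 2.35% of the fibroblasts.

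In subcluster 8 the sum of 5 markers of pericytes and smooth muscle (8918 CPM) exceeded that of 10 fibroblast markers (5164 CPM), and subclusters 8 and 9 stayed among the cells kept below. The other 5 subclusters also carried the genes of another cell type, and 72.7% to 87.2% of their cells were marked as doublets, against 0.726% to 23.0% in the rest. Subcluster 6 (205 cells) held Nr5a2 and Fshr of granulosa cells, subcluster 7 (183 cells) the steroidogenic genes Cyp11a1, Hsd3b1 and Fdx1, subcluster 10 (78 cells) Flt1, Cldn5 and Cd93 of endothelium, subcluster 11 (53 cells) Cd74, Lyz2 and C1qb of macrophages and other leukocytes, and subcluster 12 (44 cells) Upk3b, Krt18, Krt19 and Cdh1 of the ovarian surface epithelium. The sum of 5 epithelial markers (Krt18, Krt8, Krt19, Upk3b and Upk1b) in subcluster 12 was 2595 CPM. These 5 subclusters held 563 fibroblasts by the rule (12.3%), which were 6.56% and 19.6% against 6.25% and 6.55% of the fibroblasts of a library. Without them, 4023 cells remained, at 6.03% and 6.86% against 12.6% and 12.8% of the filtered barcodes left. The test across genes was therefore also run on these 4023 cells, an alternative chosen after the data were seen; values below are for all fibroblasts unless these cells are named, and the differences from other classes were not run on them. None of the 12 shares reached an adjusted p below 1 in the exact permutation test, whose smallest unadjusted p is 0.333.

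**Figure D3:**
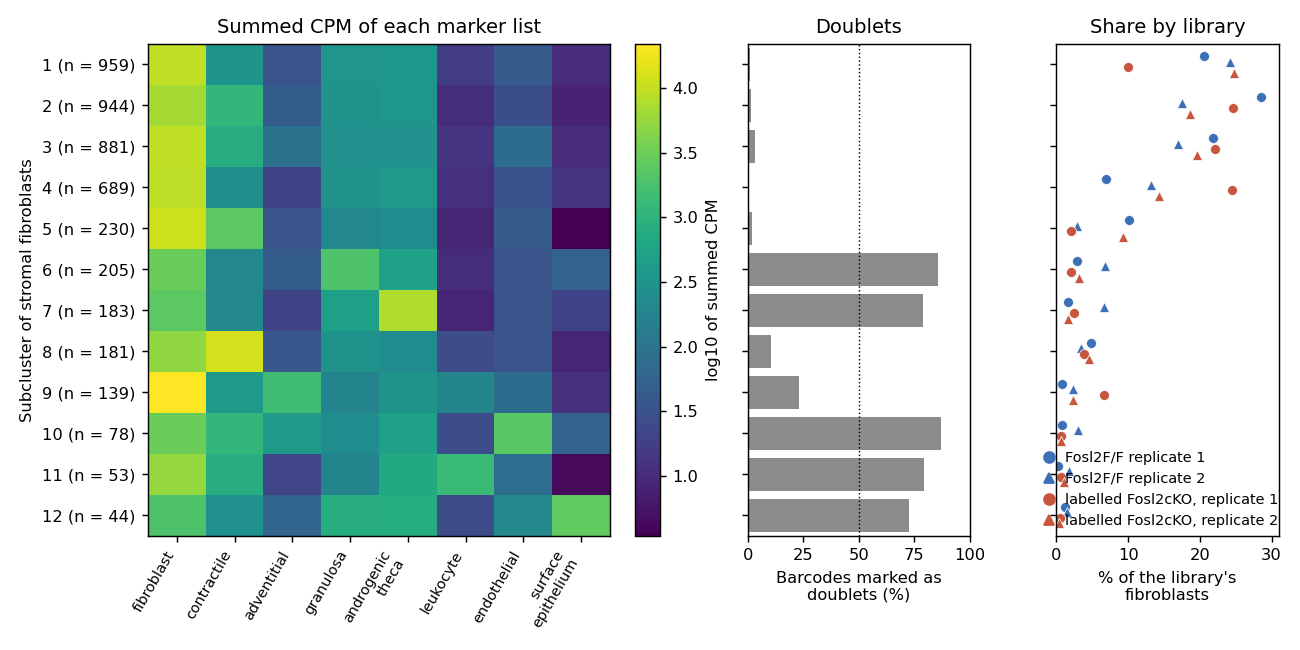
The 12 subclusters of stromal fibroblasts: summed CPM of 8 marker lists on a log10 colour scale (left), percentage of barcodes marked as doublets with a dotted line at 50% (middle), and share of each library's fibroblasts (right, 1 point per library). Subclusters 6, 7, 10, 11 and 12 pass the dotted line and each is bright in the list of another cell type.

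Between the conditions, 35 of 14489 genes tested differed in the fibroblasts (0.242%), 17 being higher (0.117%) and 18 lower (0.124%) under the label Fosl2cKO. The test was the quasi-likelihood test of edgeR on UMIs summed per library, and a gene was called where the adjusted p lay below 0.1 and the log2 fold change exceeded 0.25 in absolute value. Without the doublet-rich subclusters, 43 of 13457 genes differed (0.32%), 35 higher (0.26%) and 8 lower (0.0594%). Of these, 16 were called in both, which is 45.7% of the former and 37.2% of the latter list. The overlap was uneven: 15 of the 17 higher genes were called in both, but 1 of the 18 lower ones. The subclusters left out were formed from the same counts, so this overlap is not an independent check. DESeq2 called 87 of the 23203 genes with a UMI in all fibroblasts (0.375%), 46 higher (0.198%) and 41 lower (0.177%). These 23203 genes were not filtered by level and may include genes that DESeq2 leaves without an adjusted p. The shares are therefore not on the same base as those of edgeR.

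How many genes passed varied when a library was left out and when a trend with base composition was removed. Leaving out Fosl2F/F replicate 1 or 2 gave 28 or 30 called genes, 10 of the 35 among them each time, and leaving out replicate 1 or 2 labelled Fosl2cKO gave 271 or 272, all 35 among them. When the trend of each library with the GC content of transcripts was removed, 2 of 14481 genes passed (0.0138%), Plb1 and Cebpd, both higher (0.0138%). The log2 fold changes of the 35 genes kept their direction under this correction and moved by at most 0.26, and the 33 that no longer passed had adjusted p from 0.111 to 0.197. Groups that do not overlap are common with 2 libraries each: among all genes tested, both libraries labelled Fosl2cKO lay above both controls in 14.9% and below both in 14.6%.

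Among the 18 lower genes were keratins, uroplakins and the mucin gene Muc16 of the ovarian surface epithelium. Krt18, a keratin of simple epithelia, had 119 and 46.6 CPM for Fosl2F/F against 11.7 and 10.4 CPM for the label Fosl2cKO (log2 fold change -2.90, SE 0.42, adjusted p = 0.0439). Its partner Krt8 had 51.2 and 26.8 against 9.99 and 8.85 CPM (log2 fold change -2.04, SE 0.36, adjusted p = 0.0729), and Upk3b, a uroplakin of mesothelium, 42.5 and 34.3 against 12.6 and 6.87 CPM (log2 fold change -1.96, SE 0.35, adjusted p = 0.0729). In all 3 the groups did not overlap, which held in the same direction for 14.6% of all genes tested. Of the 9 markers of surface epithelium tested, 6 were lower (Krt18, Krt8, Upk3b, Upk1b, Msln and Muc16), against 0.124% of all genes, and 0 higher, with a median log2 fold change of -2.25 against 0.01 over the 14468 tested genes outside the rule.

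The epithelial signal sat in few cells. Of the 18 lower genes, 16 had their highest level in subcluster 12, both over the pooled libraries and within the 2nd Fosl2F/F library, which alone had at least 20 cells of it. There Krt18 stood at 818 CPM, Gpm6a at 884 CPM and Sox6 at 692 CPM. That subcluster was 1.24% and 1.42% against 0.521% and 0.293% of the fibroblasts. How many of all genes tested were highest in it was not counted. Once the doublet-rich subclusters were left out, the summed level of the 9 epithelial markers, which was 408 and 215 against 84.9 and 48.6 CPM in all fibroblasts, was 11.0 and 17.6 against 17.5 and 8.63 CPM, and 0 of the 4 markers still tested was called. Krt18 was then at 2.25 and 4.05 against 2.85 and 1.81 CPM (log2 fold change -0.46, adjusted p = 1). Of the 18 lower genes, 7 were too low to be tested in these 4023 cells and 10 more did not pass. As 16 of the 18 were highest in subcluster 12, a cluster made from the same counts, leaving it out lowers them by construction. Removing only the barcodes marked as doublets, in place of whole subclusters, went the other way: 14 of the 18 lower genes were then called, Krt18 (log2 fold change -3.48, adjusted p = 0.00736) and Upk3b (log2 fold change -2.59, adjusted p = 0.0108) among them, where 33 of 13616 genes were lower (0.242%).

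Uchl1, a deubiquitinase, was the lower gene that was called in both. It had 27.8 and 32.0 CPM for Fosl2F/F against 8.41 and 9.78 CPM for the label Fosl2cKO (log2 fold change -1.71, SE 0.30, adjusted p = 0.0729), and 25.4 and 25.3 against 7.65 and 7.79 CPM without the doublet-rich subclusters (log2 fold change -1.72, adjusted p = 0.0267). In theca-interstitial barcodes Uchl1 had 61.0 and 58.6 against 15.1 and 12.4 CPM and did not pass the test (adjusted p = 0.253).

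The other 7 lower genes passed among the 4023 cells and not in all fibroblasts, where their log2 fold changes lay between -4.01 (Akr1c18) and -1.07 (Lhcgr), with adjusted p from 0.104 to 0.999. The difference between both sets of cells was not tested. Lef1, a nuclear effector of Wnt signalling, had 29.9 and 28.8 against 6.35 and 7.79 CPM (log2 fold change -2.06, SE 0.33, adjusted p = 0.00883), with both libraries labelled Fosl2cKO below both controls. Sfrp4, a secreted Wnt antagonist, had 28.7 and 53.8 against 11.9 and 10.7 CPM (log2 fold change -1.88, SE 0.34, adjusted p = 0.0230). Nap1l5 stood at 51.6 and 32.2 against 12.8 and 11.3 CPM (log2 fold change -1.80, SE 0.33, adjusted p = 0.0230). Genes of luteal and theca cells were among them: Akr1c18, which degrades progesterone, had 9.58 and 16.4 against 1.04 and 0 CPM (log2 fold change -4.57, SE 0.69, adjusted p = 0.00640) and Lhcgr, the receptor of luteinising hormone, 17.2 and 44.6 against 4.41 and 10.3 CPM (log2 fold change -2.10, SE 0.43, adjusted p = 0.0439). Padi6, a gene of oocytes, had 5.07 and 12.5 against 0.908 and 0.696 CPM, and Spp1 289 and 3.09 against 6.87 and 4.73 CPM, the latter high in the 1st Fosl2F/F library alone. In the 4023 cells the 8 androgenic theca markers summed to 399 and 960.1 against 515 and 314 CPM and the 6 luteal markers to 312 and 300.1 against 334 and 217 CPM. The 10 granulosa markers summed to 603 and 388 against 248 and 304 CPM, and the 8 oocyte markers to 31.3 and 139 against 9.73 and 32.4 CPM. Over the pooled libraries Nap1l5 was highest in subcluster 6, Akr1c18, Lhcgr and Sfrp4 in 7, Lef1 in 10, Padi6 in 11 and Spp1 in 5. The part of transcripts of other cells in these results was not tested.

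Among the genes that were higher, Cebpd was the most abundant of those with a log2 fold change over 2. Cebpd encodes a C/EBP transcription factor that responds to glucocorticoids and inflammation, and had 53.1 and 73.7 CPM for Fosl2F/F against 381 and 315 CPM for the label Fosl2cKO (log2 fold change 2.47, SE 0.31, adjusted p = 0.0290). The groups were far apart, and without the doublet-rich subclusters the values were 58.0 and 97.8 against 436 and 349 CPM (log2 fold change 2.32, adjusted p = 0.00621). Among the subclusters with at least 20 cells of a library, Cebpd was highest in subcluster 4, the NF-kB subcluster, within each library, at 115 and 155 against 559.6 and 781 CPM. Theca-interstitial barcodes had 53.8 and 37.0 against 260.3 and 192 CPM of Cebpd (adjusted p = 0.454) and granulosa barcodes 4.31 and 8.88 against 14.2 and 15.5 CPM (adjusted p = 0.667).

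Dbp, a transcription factor gene driven by the circadian clock, had 12.9 and 12.2 CPM for Fosl2F/F against 52.4 and 45.4 CPM for the label Fosl2cKO (log2 fold change 1.97, SE 0.29, adjusted p = 0.0439), and 10.4 and 8.68 against 48.1 and 41.3 CPM without the doublet-rich subclusters. Ier5, an immediate early gene, had 25.0 and 23.5 against 65.9 and 109 CPM (log2 fold change 1.85, SE 0.31, adjusted p = 0.0729). Metrnl, a secreted factor, had 23.0 and 27.3 against 91.7 and 76.5 CPM (log2 fold change 1.75, SE 0.28, adjusted p = 0.0708), and Sfrp2, a secreted modulator of Wnt signals, 2.53 and 4.30 against 16.5 and 13.5 CPM (log2 fold change 2.10, SE 0.39, adjusted p = 0.0851). In each of these 4 genes the groups did not overlap, which held in the same direction for 14.9% of all genes tested. Each was also called among the 4023 cells, a subset of the same cells, though Sfrp2 missed the threshold in subclusters 1 to 5 alone (adjusted p = 0.103). With the GC trend removed none of the 4 passed (edgeR, adjusted p from 0.111 to 0.140). Dbp, Ier5, Metrnl and Sfrp2 had log2 fold changes of 1.59, 1.77, 1.09 and 0.14 in theca-interstitial barcodes. In granulosa barcodes they were 0.58, 1.79, 1.99 and -1.55, and none passed in either class. The time of day at which the ovaries were taken is not given in the sources used here.

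The higher genes also held Eif3f, Scand1, Glrx5, Rfxap, Tmem160 and Zfp771. Eif3f, a subunit of a translation initiation factor, had 119.9 and 136 CPM for Fosl2F/F against 341 and 475 CPM for the label Fosl2cKO (log2 fold change 1.67, SE 0.30, adjusted p = 0.0729). Scand1 had 13.3 and 28.5 against 103 and 112 CPM (log2 fold change 2.35, SE 0.34, adjusted p = 0.0439), Glrx5, of iron-sulfur cluster assembly, 15.2 and 19.6 against 41.9 and 69.4 CPM (log2 fold change 1.67, SE 0.31, adjusted p = 0.0882), and Rfxap, of the complex that activates MHC class II genes, 5.51 and 6.28 against 20.7 and 28.3 CPM (log2 fold change 2.05, SE 0.33, adjusted p = 0.0708). Tmem160 and Zfp771 had log2 fold changes of 2.24 and 2.42. These 6 genes had log2 fold changes above 0 in each of the 3 classes: their log2 fold changes were 1.51, 2.12, 1.61, 1.89, 2.16 and 2.28 in theca-interstitial barcodes and 1.79, 2.31, 2.14, 1.73, 2.41 and 1.82 in granulosa barcodes, in the same order, without passing the test there. With the GC trend removed, their log2 fold changes in the fibroblasts were 1.67, 2.12, 1.69, 2.05, 2.10 and 2.17 in that order, and their adjusted p ran from 0.111 to 0.197, above the threshold of 0.1.

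Genes of macrophages stood among those higher in all fibroblasts. Mmp12, the elastase of macrophages, had 0.689 and 0.813 CPM for Fosl2F/F against 43.7 and 10.9 CPM for the label Fosl2cKO (log2 fold change 5.15, SE 0.71, adjusted p = 0.0439), and Gpnmb, a membrane protein of macrophages, 4.13 and 4.65 against 46.2 and 14.3 CPM (log2 fold change 2.79, SE 0.51, adjusted p = 0.0777). Over the pooled libraries both were highest in subcluster 11, at 807 and 758 CPM, and in the 1st library labelled Fosl2cKO. Subcluster 11 had 1 and 36 against 6 and 10 cells. Among subclusters with at least 20 cells of a library, Gpnmb was highest in subcluster 11 in the 2nd Fosl2F/F library and in subcluster 9 in both libraries labelled Fosl2cKO (25.1 and 24.4 CPM). Without the doublet-rich subclusters neither passed, with 0.845 and 0.965 against 4.41 and 3.90 CPM for Mmp12 (adjusted p = 0.340) and 5.07 and 5.02 against 10.2 and 8.21 CPM for Gpnmb (adjusted p = 1). With only the marked barcodes removed, Mmp12 was called (log2 fold change 4.48, adjusted p = 0.0247) and Gpnmb was not (log2 fold change 2.30, adjusted p = 0.118). The summed level of the 11 leukocyte markers was 71.4 and 378 against 388 and 249 CPM in all fibroblasts and 51.8 and 132 against 100.1 and 55.6 CPM in the remaining cells.

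Clec3b, which encodes tetranectin and led subcluster 9, had 7.81 and 6.28 CPM for Fosl2F/F against 68.6 and 20.1 CPM for the label Fosl2cKO (log2 fold change 2.69, SE 0.51, adjusted p = 0.0882), and 9.58 and 8.68 against 80.0 and 23.9 CPM in the 4023 cells (log2 fold change 2.52, adjusted p = 0.0230). In subclusters 1 to 5 alone it did not pass (log2 fold change -0.34), and 95.1% of its UMIs lay outside the doublet-rich subclusters. In theca-interstitial barcodes Clec3b had 0.449 and 0.458 against 8.07 and 2.03 CPM (log2 fold change 3.41) and did not pass (edgeR, adjusted p = 0.662). Of the 12 adventitial fibroblast genes, 1 was higher (Clec3b, against 0.117% of all genes) and 1 lower (against 0.124%; Dpp4, 7.12 and 7.20 against 1.05 and 1.05 CPM, highest in subcluster 12), with a median log2 fold change of 0.33. Of the 35 genes higher in the 4023 cells, 10 had their highest level over the pooled libraries in subcluster 9. That subcluster was formed from the same counts, and how many of all genes tested were highest in it was not counted. As libraries gave it unequal shares, the order was also read within each of the 3 libraries with at least 20 of its cells, and subcluster 9 was highest in all 3 for 8 genes (Clec3b, Adgrd1, C3, Cilp, Ebf2, Opcml, Syndig1 and Unc5c), in 2 for Grasp and in 1 for Dbp. The complement gene C3 had 27.6 and 19.3 against 122 and 55.5 CPM (log2 fold change 1.93, SE 0.37, adjusted p = 0.0309), and Cilp, a matrix protein of cartilage and heart, 7.61 and 3.28 against 49.5 and 10.4 CPM (log2 fold change 2.51, SE 0.56, adjusted p = 0.0801). Both were highest in the 1st library labelled Fosl2cKO, which also had the largest share of subcluster 9, and the part of that share in these values was not tested.

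Another 9 of the higher genes passed among the 4023 cells and not in all fibroblasts, where their log2 fold changes lay between 1.19 and 2.30 (adjusted p from 0.104 to 0.575). Ywhah, a 14-3-3 protein, had 59.2 and 48.1 against 119 and 165 CPM (log2 fold change 1.39, SE 0.31, adjusted p = 0.0801) and Bri3 54.9 and 70.6 against 120.2 and 258 CPM (log2 fold change 1.57, SE 0.35, adjusted p = 0.0801). Pink1, a kinase that marks damaged mitochondria, had 16.6 and 19.3 against 42.0 and 50.9 CPM, and Hdac9, a histone deacetylase, 4.51 and 7.91 against 20.4 and 23.0 CPM. Rab5if, Rab24, Podxl2, Pdcd2 and 0610012G03Rik had log2 fold changes from 1.51 (Rab5if) to 2.21 (Pdcd2). For each of these 9 genes both libraries labelled Fosl2cKO lay above both controls. The genes were picked by the test on these same libraries, so this adds no support. In all fibroblasts 14.9% of all genes tested lay so, and the share was not counted for the 4023 cells.

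Plb1, a phospholipase gene, showed the largest fold change. It had 0.459 and 0.232 CPM for Fosl2F/F against 55.7 and 84.4 CPM for the label Fosl2cKO in all fibroblasts (log2 fold change 7.75, SE 0.49, adjusted p = 4.14e-05). These values rest on 2 and 2 UMIs in the Fosl2F/F libraries and 530 and 725 UMIs in those labelled Fosl2cKO, a pooled ratio of 225 with a 95% exact interval of 87.5 to 826, which covers counting error only. Most of this signal lay in the doublet-rich subclusters, outside which 11.9% of the Plb1 UMIs lay. In the 1st library labelled Fosl2cKO, Plb1 stood at 448 CPM in subcluster 7 and 207 CPM in subcluster 6, and in the 2nd at 156 CPM in subcluster 6. Without them Plb1 had 0.282 and 0 against 7.13 and 13.1 CPM, from 1 and 0 against 55 and 94 UMIs (log2 fold change 6.19, adjusted p = 0.00528).

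Under the label Fosl2cKO, Plb1 stood higher in theca-interstitial and granulosa barcodes than in fibroblasts. Theca-interstitial barcodes had 0.0898 and 0.0833 against 197 and 212 CPM of Plb1 (adjusted p = 0.000189) and granulosa barcodes 0.0798 and 0.103 against 1589 and 503 CPM (adjusted p = 0.0134). In the 4023 fibroblasts of the libraries labelled Fosl2cKO, Plb1 stood at 0.449% and 2.60% of its level in granulosa barcodes of the same library. The granulosa genes Inha and Hsd17b1, measured in the same way, stood at 1.29% and 1.36%, and at 1.90% and 1.27%, so that Plb1 lay below these genes in the 1st library and above them in the 2nd. Free RNA of other cells was not tested as a part of the Plb1 level. Gal3st3 and Adgrd1 rose from as few molecules. Gal3st3, a sulfotransferase gene, had 0 and 1 against 33 and 40 UMIs, a pooled ratio of 52.3 (95% exact interval 9.09 to 2093; log2 fold change 5.48, SE 0.89, adjusted p = 0.0729). Adgrd1, an adhesion receptor gene, had 0 and 1 against 35 and 21 UMIs, a ratio of 40.1 (6.91 to 1612; log2 fold change 5.09, SE 0.95, adjusted p = 0.0882), and lay almost wholly in subcluster 9, at 52.7 CPM over the pooled libraries. In theca-interstitial barcodes Gal3st3 had 0 and 1 against 49 and 83 UMIs and Adgrd1 2 and 5 against 5 and 6 UMIs.

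Plb1 lies on the same chromosome and strand as Fosl2. In GENCODE M21 (GRCm38) Fosl2 spans chr5:32135801-32157842 and Plb1 chr5:32232708-32366520, with 74866 bases from the end of Fosl2 to the start of Plb1. The promoter windows of Plb1, Eif3f and Dbp (250 bases before to 50 after a RefSeq start site, GRCm38.p6) are printed because AP-1 is the factor that Fosl2 forms. They were picked after the motif search from the 16 genes called with and without the doublet-rich subclusters, Plb1 and Eif3f as the genes whose window held the motif and Dbp as a gene without it. Capitals mark the AP-1 motif TGANTCA, which reads the same on both strands. The windows lie at chr5:32238834-32239133, chr7:108934165-108934464 and chr7:45704997-45705296, on the plus strand, each 5′ to 3′:
Plb1: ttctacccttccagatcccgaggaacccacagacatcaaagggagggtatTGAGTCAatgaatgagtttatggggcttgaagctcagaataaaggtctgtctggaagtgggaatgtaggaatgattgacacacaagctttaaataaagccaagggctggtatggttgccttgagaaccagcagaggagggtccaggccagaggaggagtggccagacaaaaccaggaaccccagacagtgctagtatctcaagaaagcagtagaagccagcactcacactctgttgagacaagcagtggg
Eif3f: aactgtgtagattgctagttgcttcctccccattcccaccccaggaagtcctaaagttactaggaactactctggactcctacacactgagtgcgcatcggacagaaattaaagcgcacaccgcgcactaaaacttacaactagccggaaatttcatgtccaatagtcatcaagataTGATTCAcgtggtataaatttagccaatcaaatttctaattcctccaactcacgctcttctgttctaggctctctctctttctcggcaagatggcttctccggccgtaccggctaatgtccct
Dbp: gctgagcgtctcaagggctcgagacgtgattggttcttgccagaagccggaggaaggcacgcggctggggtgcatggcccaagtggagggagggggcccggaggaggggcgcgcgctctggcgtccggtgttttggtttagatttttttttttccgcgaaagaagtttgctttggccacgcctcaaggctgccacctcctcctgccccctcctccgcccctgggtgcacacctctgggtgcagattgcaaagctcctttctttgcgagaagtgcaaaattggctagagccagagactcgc

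The match began at position -200 relative to the start in this Plb1 window and at -73 in that of Eif3f. This Plb1 window lies inside the GENCODE span of Plb1, and no window at the GENCODE start was searched. A second RefSeq start of Plb1 and the Dbp window held no match. Of the 14489 genes tested, 11000 had a window in the table, and 6.37% of these held the motif in at least 1 window. It was present in 4 of 12 higher genes with a window (Eif3f, Gpnmb, Mmp12 and Plb1) and in 1 of 14 lower genes (Lsr), and among the 4023 cells in 3 of 27 higher genes (Eif3f, Hdac9 and Plb1) and in 0 of 7 lower genes. A match is a description of the letters and shows neither binding nor an effect of Fosl2. The E-box CACGTG, by which clock factors bind, was found in 11.5% of the genes with a window and not in the Dbp window. It was found in that of Eif3f, where it overlaps the AP-1 match.

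**Figure D4:**
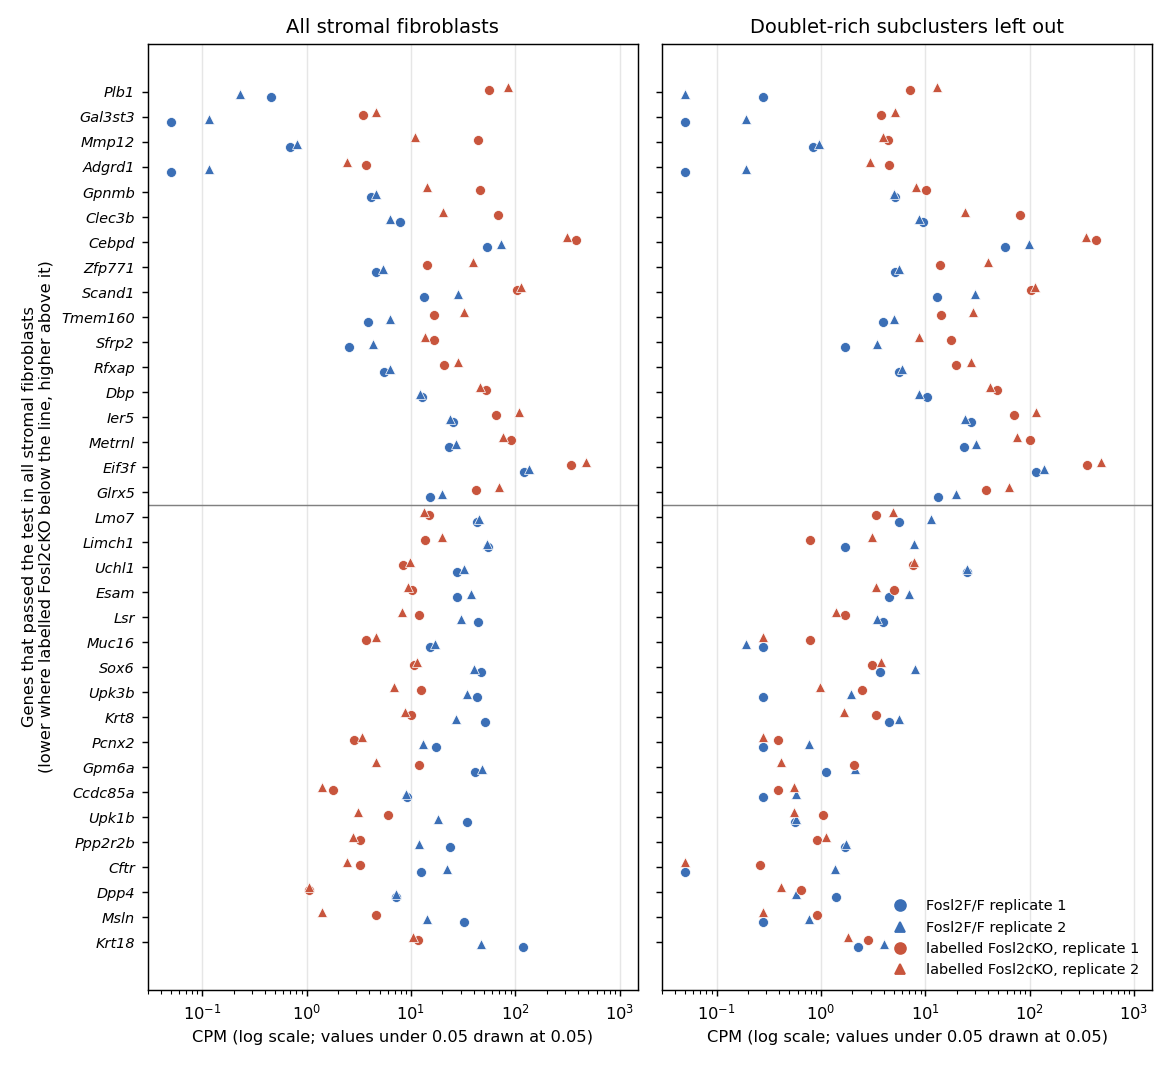
Levels of the 35 genes that passed the test in all stromal fibroblasts, in CPM on a log axis with 1 point per library, for all 4586 fibroblasts (left) and for the 4023 cells outside the doublet-rich subclusters (right). On the left the groups are apart for each gene; on the right the groups of the 17 higher genes stay apart, while of the 18 lower genes 7 were too low to be tested, 10 did not pass and Uchl1 did.

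Fosl2 itself did not pass the test in fibroblasts, at 167 and 303 CPM for Fosl2F/F against 338 and 168 CPM for the label Fosl2cKO (log2 fold change 0.13, SE 0.38, adjusted p = 0.999 by the quasi-likelihood test of edgeR). Its values ran as widely within a group as between groups. Of the 13 genes of AP-1 and related factors tested, 0 was called in all fibroblasts, against 0.242% of all genes. In a list this short, 0 calls is no different from that background. The median log2 fold change was 0.25, against 0.01 over all tested genes outside the rule. Fos, the partner of Jun in AP-1, had 3131 and 3411 against 3652 and 2637 CPM, Junb 1890 and 1796 against 2696 and 1419 CPM and Fosb 2024 and 1801 against 2010 and 1697 CPM, and in all 3 the groups overlapped, with the 2nd library labelled Fosl2cKO lowest. Jun had 1898 and 2422 against 2656 and 2445 CPM, without overlap but with a narrow gap, and did not pass (adjusted p = 0.999). Jund had 311 and 273 against 443 and 1696 CPM, with the 2nd library labelled Fosl2cKO alone far above the rest. It was not called in all fibroblasts and was called without the doublet-rich subclusters (log2 fold change 1.90, SE 0.42, adjusted p = 0.0801). The same library also held the highest Jund in theca-interstitial barcodes (202 and 246 against 365 and 1247 CPM) and granulosa barcodes (248 and 226 against 325 and 1119 CPM).

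The lists of genes that follow are short beside the share of all genes called, which was 0.242% in all fibroblasts and 0.32% among the 4023 cells, so that 0 calls in a list is no different from this background. Log2 fold changes above 0 were found for 51.3% of all tested genes outside the rule, with a median of 0.01. Of the 88 matrix genes tested 0 was called. The 21 genes of fibrillar collagens and their assembly summed to 7653 and 4815 against 9134 and 6232 CPM, and 19 of the 21 had a log2 fold change above 0, with a median of 0.27. Col3a1 of collagen III had 1826 and 1080 against 2640 and 1254 CPM and Col1a2 1287 and 821 against 1584 and 1230 CPM, with the 2nd Fosl2F/F library lowest for both. Small leucine-rich proteoglycans outside the rule had a median of -0.10 over 8 genes, with Bgn of biglycan at 757 and 352 against 566 and 448 CPM and Ogn at 305 and 269 against 198 and 264 CPM. Basement membrane genes summed to 2069 and 2369 against 2391 and 2976 CPM, and 10 of 11 lay above 0 (median 0.25). Lama2 of laminin had 760.0 and 865 against 774 and 1254 CPM. Elastic fibre genes (16 tested, median 0.12), matricellular genes such as Sparc (2155 and 1291 against 2217 and 1361 CPM) and Tnc (281 and 184 against 409 and 327 CPM) (14 tested, median 0.081), and matrix proteases and their inhibitors (18 tested, median 0.15) likewise had 0 calls. Tnc did not overlap between the groups, but did not pass (adjusted p = 0.999).

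Of 82 tested genes by which fibroblasts receive and send signals 1 was called, against 0.242% of all genes. Of 24 growth factor receptor genes 0 was called (median log2 fold change 0.12), with Ghr, of the growth hormone receptor, at 477 and 375 against 375 and 551 CPM and Igf1r at 424 and 577 against 416 and 499.6 CPM. Of 28 tested genes of secreted growth factors and their binding proteins 0 was called (median 0.19). Igfbp4, which binds insulin-like growth factors, had 549.6 and 483 against 775 and 656 CPM, and Igfbp7 281 and 247 against 239.6 and 961 CPM, with the 2nd library labelled Fosl2cKO above the other 3. Among 20 Wnt genes, Sfrp2 was higher and 0 lower in all fibroblasts (median 0.20), and Sfrp2 was higher and Sfrp4 and Lef1 lower among the 4023 cells. Sfrp1 had 108 and 65.8 against 145 and 259 CPM and did not pass (adjusted p = 0.436). The Hedgehog list, which includes Ptch1 (156 and 155 against 108 and 180.1 CPM), Gli2 and Gli3, had 0 calls in 10 genes, with a median of 0.17.

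Among regulators, 0 of 22 nuclear receptors was called (against 0.242% of all genes), and 19 of the 22 had a log2 fold change above 0 (against 51.3% of all genes; median 0.21), with Rora at 816 and 1210 against 1157 and 1267 CPM. Of 27 stromal transcription factors 0 was called in all fibroblasts (median 0.22), and Ebf2 was called among the 4023 cells from 1.41 and 0.386 against 9.73 and 5.84 CPM. Tcf4 had 1184 and 1117 against 1040 and 1648 CPM. Of 20 immediate early and heat shock genes, Ier5 was higher in all fibroblasts, and Ier5 and Klf2 (73.3 and 66.4 against 146 and 263 CPM) in the 4023 cells, whereas Egr1 had 1548 and 1708 against 2076 and 1498 CPM with overlapping groups.

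Chemokine, cytokine and complement genes had 0 calls in all fibroblasts over 23 genes (against 0.242% of all genes) and 1, C3, among the 4023 cells (against 0.32% of all genes). Their median log2 fold change in all fibroblasts was 0.34, and 18 of the 23 lay above 0, against 51.3% of all genes. Cxcl14 had 259.7 and 235 against 160.2 and 631 CPM and Serping1 315 and 185 against 370.3 and 283 CPM. Socs1, which limits cytokine signals, was higher among the 4023 cells (6.20 and 20.1 against 94.4 and 38.1 CPM; log2 fold change 2.30, SE 0.45, adjusted p = 0.0369). Of 13 genes of senescence and growth arrest, Cdkn1c, an inhibitor of cell division, was called there (9.58 and 10.4 against 26.5 and 26.8 CPM), and 0 in all fibroblasts (median 0.057).

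Neuronal adhesion genes, a group to which 3 of the rule's markers belong (Dpp6, Nkain3 and Nlgn1), had 0 calls over 28 tested genes in all fibroblasts (median log2 fold change 0.28), and Opcml (5.07 and 5.79 against 28.1 and 16.1 CPM) and Unc5c, a netrin receptor (log2 fold change 2.10), were higher among the 4023 cells. Csmd1 stood at 2449 and 1294 against 1010 and 2867 CPM and the Slit receptor gene Robo2 at 593 and 471 against 528 and 849 CPM. Ion channels and transporters had 0 calls over 20 genes (median 0.18), with Kcnt2 at 684 and 547 against 494 and 883 CPM. Contractile genes (15 tested, median 0.015) included Acta2, of smooth muscle actin, at 1220 and 630.0 against 649.9 and 497 CPM, highest in the 1st Fosl2F/F library. Retinoid genes had 0 calls in 9 genes (median -0.21). Steroidogenic genes had 0 calls in 12 genes tested in all fibroblasts (median -0.54, 10 below 0) and 1, Akr1c18, among the 4023 cells (median -0.93). Cyp11a1, which starts steroid synthesis, had 187 and 919 against 421 and 167 CPM in all fibroblasts and 92.1 and 310.3 against 65.4 and 53.8 CPM without them, highest in the 2nd Fosl2F/F library both times.

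**Figure D5:**
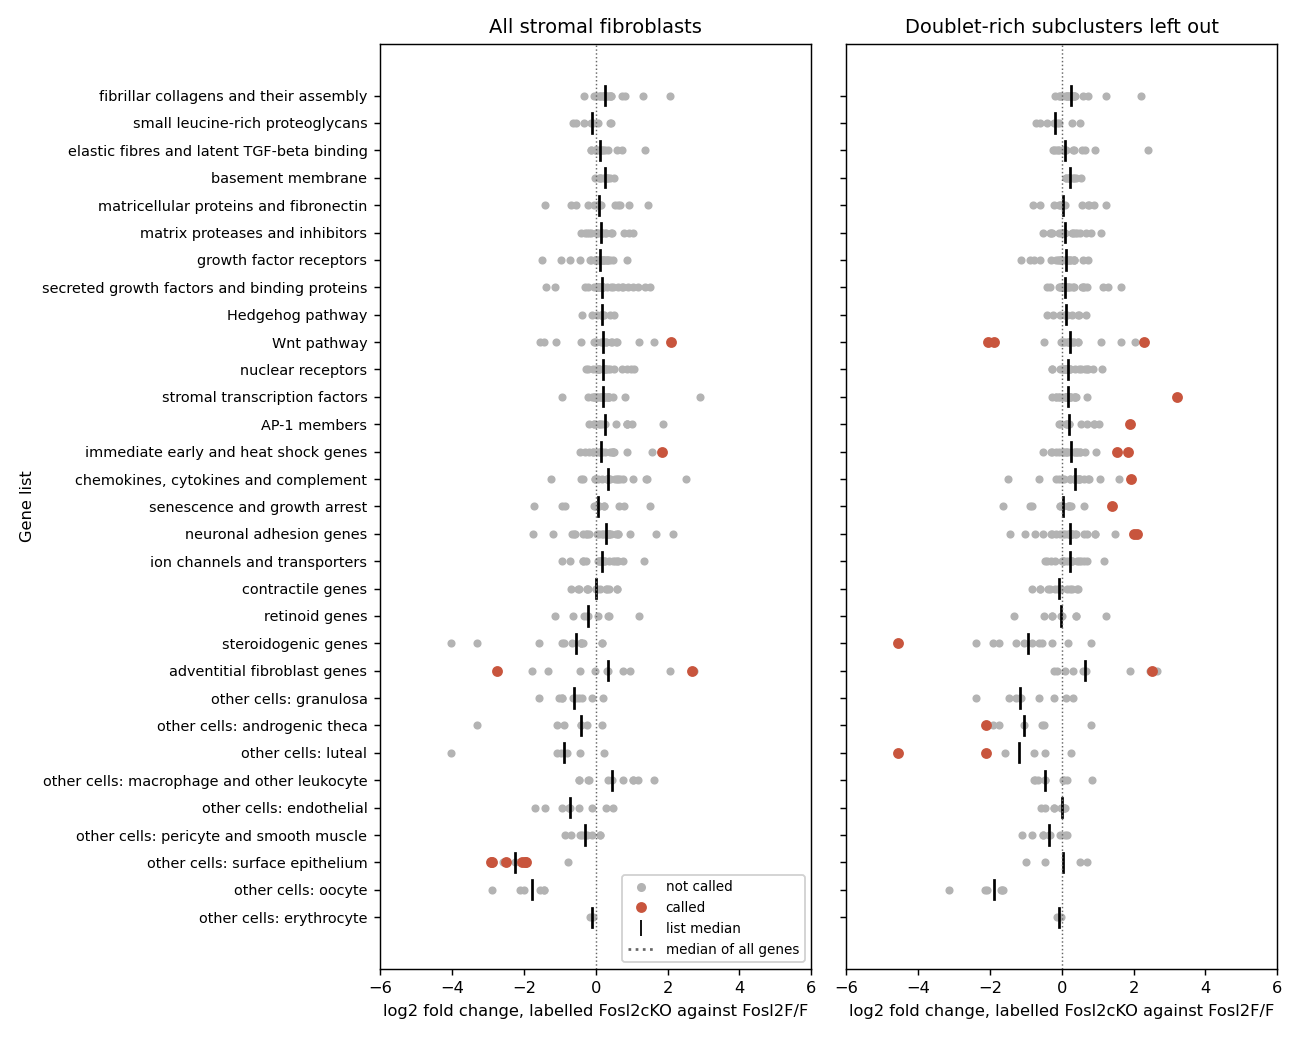
Log2 fold changes of the genes of 31 lists in all stromal fibroblasts (left) and without the doublet-rich subclusters (right). Each dot is a gene outside the rule, coloured where it passed the test; black bars are list medians and the dotted line is the median of all genes. The surface epithelium list lies at a median of -2.25 on the left and at 0.03 on the right.

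The marker lists of other cells apart from surface epithelium had 0 calls in all fibroblasts. Granulosa markers summed to 808 and 856 against 420.1 and 649 CPM (median log2 fold change -0.59 over 10 genes), theca markers to 661 and 2566 against 1524 and 676 CPM (median -0.42 over 7), luteal markers to 363 and 629 against 496 and 315 CPM (median -0.88 over 6), and endothelial markers to 158 and 313 against 182 and 120.3 CPM (median -0.72 over 10). Pericyte and smooth muscle markers summed to 2171 and 1317 against 1423 and 1141 CPM, leukocyte markers had a median of 0.45 over 11 genes, and erythrocyte markers summed to 13.6 and 4.07 against 8.94 and 4.08 CPM. The summed oocyte transcripts ran from 9.15 CPM in the 1st library labelled Fosl2cKO to 109.8 CPM in the 2nd Fosl2F/F library, as did those of granulosa barcodes, from 5.40 to 85.9 CPM in the same libraries, and 6 of 6 tested had a log2 fold change below 0. Among the 4023 cells, the median turned to -0.45 over the 9 leukocyte markers tested and was -0.000327 for endothelial, -1.15 for granulosa, -1.04 for theca and -1.18 for luteal markers. There, Lhcgr of the theca and luteal lists and Akr1c18 of the luteal list were lower.

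The condition effect of the fibroblasts was then compared with that of the neighbouring classes in 1 model with an interaction term and the library as a block. Against theca-interstitial barcodes, 0 of 15473 genes differed in their effect at an adjusted p under 0.1 (498 at an unadjusted p under 0.05, edgeR), and against granulosa barcodes 0 of 15229 (864 at an unadjusted p under 0.05, edgeR). Without Fosl2F/F replicate 1 or 2 these counts were 51 and 138 for theca-interstitial and 114 and 13 for granulosa barcodes, and without either library labelled Fosl2cKO 0. Tested alone, 1 gene passed in theca-interstitial barcodes and 4 in granulosa barcodes. The larger number in fibroblasts is therefore not shown to be particular to them. Cebpd had log2 fold changes of 2.47 in fibroblasts, 2.26 in theca-interstitial and 1.18 in granulosa barcodes, and the differences had adjusted p = 1 and 0.502 (edgeR). Sfrp2, at 2.53 and 4.30 against 16.5 and 13.5 CPM in fibroblasts, had 7.27 and 6.12 against 7.71 and 7.52 CPM in theca-interstitial barcodes, and the difference did not pass (edgeR, adjusted p = 0.715).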

How the data were processed

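Whole ovaries were dissociated and sequenced as single cells (10x 3' kit, v3) in 4 libraries, 2 per genotype, grouped by their labels. The authors aligned reads to GRCm38 with Cell Ranger, kept uniquely mapped reads and deposited UMI counts per gene and barcode without normalization. The matrix headers name version 7.1.0, another than the methods, and whether the CellBender removal of background RNA is in the deposited counts is not given in the sources used here. The files held 32285 genes and 0 columns were left out.

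The rule was applied to raw counts, and the members and gene lists were chosen with earlier results of these data known. Scrublet scores (scanpy 1.11.5) marked 0.8% of barcodes per 1000 barcodes of a library as doublets; they were kept unless stated. Members were clustered on 2000 variable genes, 30 components and 15 neighbours (Leiden, resolution 0.5, alternatives 0.3 and 0.8). Subclusters with over 50% of barcodes marked were called doublet-rich. UMIs were summed per library, filtered by filterByExpr, scaled by TMM and compared with edgeR 4.0.16 (glmQLFit and glmQLFTest, Benjamini-Hochberg adjusted). The SE was taken as the size of the log2 fold change divided by the square root of F. An adjusted p given for a gene comes from this fit, or from the same test under the alternative or the interaction model named beside it, each adjusted across all genes tested in it. Shares were compared by exact permutation (scipy 1.17.1). The test was checked on simulated counts of 14226 to 14255 genes with 200 changed. It called none of the genes changed 2-fold, 81.5% of those changed 4-fold and 92.5% of those changed 8-fold. Of the 176 genes called at 4-fold and the 198 called at 8-fold, 13 each time were not among those changed. The data may hold fewer changed genes than 200, and the shares recovered may then be lower. The larger folds were simulated after the first run at 2-fold had been seen. A gene that did not pass may still differ by 2-fold, and some changes of 4-fold or 8-fold are also missed.

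Named genes were those of the rule, the genes of Fosl2 and AP-1, called genes and up to 4 abundant members of each list, the called genes with the largest changes, the 20 leading genes and those leading subclusters. Some genes that this rule names are not reported here. Genes called only without the doublet-rich subclusters, Mgp and Jund were named after their values were seen. Alternatives were stricter filters on doublets, depth, mitochondrial and hemoglobin UMIs, 5 markers, thinning to 2000 UMIs, a replicate block, DESeq2 1.42.0, its size factors, no gene filter, an adjusted p under 0.05, and leaving out each library; those on subclusters, GC content (known for 99.6% of genes), a crossed block and the theca-interstitial denominator were added after seeing the data. Intervals cover counting error only. Promoter windows came from RefSeq (GRCm38.p6).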

Additional observations from a re-analysis of the deposited data

How the results depend on the processing

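The higher share of fibroblasts in the libraries labelled Fosl2cKO had ratios from 1.78 to 2.37 under the alternatives planned for filters and the rule, 1.98 without the doublet-rich subclusters, 1.11 of fibroblasts and theca-interstitial barcodes together, and 1.61 to 2.10 when 1 library was left out. The number of genes called, 35 in the fit as reported, was 71 with marked doublets removed (30 of the 35 among them), 14 with 5 markers, 9 with the rule read at 2000 UMIs, 2 with the GC trend removed (all 35 kept their direction), 303 without the gene filter, 7 at an adjusted p under 0.05, 87 with DESeq2 and 28 to 272 when 1 library was left out, each of which leaves a group with 1 library that is assumed to vary like the other. The cause of these differences was not tested. The number called stayed within 1.5 times of 35 with over 2000 UMIs (32), under 5% mitochondrial UMIs (32), a hemoglobin limit (37), shared barcodes left out (39), subclusters 1 to 5 alone (31) and the other size factors (28). Of the 35 genes, 13 were among those called in subclusters 1 to 5, and 28 to 35 among those of each other setting in this group. Labels share replicate numbers, but same-numbered libraries did not deviate together (correlation -0.16 over 14489 genes), so the numbers were not read as pairs. The replicate block gave 33 genes (27 of the 35 among them), and 1 gene in place of 0 for the difference from theca-interstitial barcodes. A block that crosses the numbers gave 293. For the differences between classes, leaving out 1 library gave 0 to 138 genes (theca-interstitial) and 0 to 114 (granulosa). Of the called genes, Upk3b turned to a log2 fold change of 0.52 without the doublet-rich subclusters and 0.30 in subclusters 1 to 5, Esam to 0.023 and Clec3b to -0.34 there, none of which passed. The shares of subclusters could not pass the exact permutation test at any resolution, as its smallest p for 2 libraries against 2 is 0.333. They were not run with libraries left out.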
